A study of Mus musculus with 60 samples.

Results

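The genes described here are 9 transcripts that mark 2 small fields of the hippocampal pyramidal layer: Amigo2, Pcp4, Cacng5, Map3k15 and Necab2 for field CA2, and Iyd, Bok, Cpne4 and Prss35 for field CA3. They were taken by symbol from the 24508 gene symbols of the expression table, and all 9 were found there. Wild-type (WT) and R6/1 mice, both aged 30 weeks and of mixed CBA and C57BL/6 background, were compared in RNA from whole hippocampus, with 9 RNA-seq libraries from separate biological replicates per genotype. R6/1 mice, a model of Huntington's disease, express a transgenic fragment of human huntingtin (exon 1 with an expanded CAG repeat) from the promoter of the human gene, so that the fragment is made in many cell types and not in hippocampal neurons alone. Lamin B1 ChIP-seq from the same tissue and age, with 3 replicates per genotype that were each a pool of 5 mice, gave 1 list per genotype of domains in contact with the nuclear lamina. Expression is given as RPKM, reads per kilobase of transcript scaled for sequencing depth, so levels can be set side by side between genes as well as between libraries.

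The pyramidal neurons of the hippocampus are arranged in successive fields. CA3 neurons receive the mossy fibres of dentate granule cells, excite each other through recurrent collaterals and drive CA1 through the Schaffer collaterals. CA2, wedged between CA3 and CA1, is known for its role in social memory and for synapses that resist long-term potentiation, and it is recognised mainly by its molecular markers. Amigo2 encodes a leucine-rich repeat adhesion protein, Pcp4 a small protein that binds calmodulin, Cacng5 an auxiliary subunit of AMPA-type glutamate receptors, Map3k15 a stress-activated protein kinase and Necab2 a neuronal calcium-binding protein. Iyd encodes the deiodinase that recycles iodide from iodotyrosines in the thyroid, Bok a pro-apoptotic member of the BCL-2 family, Cpne4 a copine, which binds membrane phospholipids in a calcium-dependent way, and Prss35 a secreted protein of the serine protease family. None of these genes is expressed in its field alone, and Pcp4 in particular is also a well-known marker of thalamic and other neurons.

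The promoters of the 4 CA3 genes, which fell together in R6/1 (values below), are shown with that of Amigo2, a CA2 gene that also fell. Those of Pcp4 and of Necab2 and Cacng5, the 2 tested CA2 genes that did not pass the test, are not shown. RefSeq promoter sequences, made for assembly GRCm38.p6, were found for 8 of the 9 genes (Map3k15 being the exception), and each matched the NCBIM37 genome, the same build as mm9, at a single place. Each runs from 250 bases before to 50 bases after the annotated start, 5′ to 3′ on the gene's own strand, and capitals mark the half-site of the cyclic AMP response element (CRE), TGACG, or its reverse complement CGTCA. The positions on NCBIM37 are chr10:6806218-6806517 (minus strand) for Iyd, chr1:95581902-95582201 (plus) for Bok, chr9:104471735-104472034 (plus) for Cpne4, chr9:86636184-86636483 (plus) for Prss35 and chr15:97077669-97077968 (minus) for Amigo2.
Iyd: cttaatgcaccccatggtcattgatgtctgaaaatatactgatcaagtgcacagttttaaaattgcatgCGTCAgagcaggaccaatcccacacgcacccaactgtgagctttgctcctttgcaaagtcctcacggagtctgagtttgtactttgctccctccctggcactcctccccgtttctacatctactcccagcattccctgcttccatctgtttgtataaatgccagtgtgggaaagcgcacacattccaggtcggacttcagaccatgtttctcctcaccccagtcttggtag
Bok: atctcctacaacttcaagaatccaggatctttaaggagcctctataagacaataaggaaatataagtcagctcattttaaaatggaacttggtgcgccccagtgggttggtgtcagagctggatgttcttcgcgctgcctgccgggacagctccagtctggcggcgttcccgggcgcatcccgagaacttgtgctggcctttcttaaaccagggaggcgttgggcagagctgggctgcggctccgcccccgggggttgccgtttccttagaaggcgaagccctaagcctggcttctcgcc
Cpne4: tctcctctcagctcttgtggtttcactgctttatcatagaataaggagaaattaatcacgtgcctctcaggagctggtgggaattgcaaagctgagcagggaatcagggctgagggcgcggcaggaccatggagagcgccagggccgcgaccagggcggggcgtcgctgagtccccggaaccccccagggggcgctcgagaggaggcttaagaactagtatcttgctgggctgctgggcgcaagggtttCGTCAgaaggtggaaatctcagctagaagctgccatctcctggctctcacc
Prss35: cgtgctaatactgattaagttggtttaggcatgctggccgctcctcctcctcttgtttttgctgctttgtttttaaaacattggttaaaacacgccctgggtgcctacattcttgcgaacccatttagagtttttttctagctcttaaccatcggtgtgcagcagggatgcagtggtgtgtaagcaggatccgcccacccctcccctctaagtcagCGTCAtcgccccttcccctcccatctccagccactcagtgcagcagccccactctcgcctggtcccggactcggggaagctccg
Amigo2: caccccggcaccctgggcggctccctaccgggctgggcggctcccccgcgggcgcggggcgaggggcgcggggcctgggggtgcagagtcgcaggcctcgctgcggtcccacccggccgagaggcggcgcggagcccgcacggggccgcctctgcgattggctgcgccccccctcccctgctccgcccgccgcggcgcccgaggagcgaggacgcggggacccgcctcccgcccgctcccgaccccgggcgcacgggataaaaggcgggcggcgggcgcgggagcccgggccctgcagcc
The CRE half-site occurred once each in Iyd, Cpne4 and Prss35, and in neither Bok nor any of the 4 matched CA2 promoters. Over 27025 promoters of the same length, 21.0% held it on either strand. Besides TGACG, the E-box CANNTG, the AP-1 site TGANTCA, the TATA box TATAAA and the GC box GGGCGG were searched on both strands, and none of these patterns contains another. Iyd was the sole gene of the 8 with TATAAA in its first promoter, against 14.2% of all promoters, and it held 3 E-boxes, a motif found in 72.2% of promoters. The first promoters of Necab2 and Cacng5 held 2 E-boxes each, and those of Cpne4 and Pcp4 held 1 each. The AP-1 site, found in 7.93% of promoters, occurred once each in Necab2 and Cacng5 and in no CA3 promoter. Amigo2 held 5 GC boxes (35.9% of promoters have at least 1), the first promoter of Cacng5 held 2, and Bok, Cpne4, Prss35 and Necab2 held 1 each. The Amigo2 promoter was 83.3% G and C with 46 CpG dinucleotides, against medians of 52.7% and 7. The GC content of the CA3 promoters shown was 49.0% for Iyd, 54.0% for Prss35, 56.3% for Bok and 58.7% for Cpne4, all closer to the median than that of Amigo2. The annotated start in the Cpne4 sequence lies 22369 bases inside the gene model used for the coordinates below, and the gene has a second RefSeq promoter that is not shown. These matches describe letters and were not tested against the expression data.

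WT libraries held 12299434 to 16457022 reads on genes and R6/1 libraries 13260311 to 16736544. Differences were tested with limma on log2(RPKM + 0.5), with Benjamini-Hochberg adjustment over the 14446 genes whose mean reached 0.5 RPKM, and a gene is called below where its adjusted p is under 0.05. The contrast was broad: 6980 genes, 48.3% of those tested, were called, 23.5% as lower and 24.8% as higher in R6/1. The genotypes did not overlap for 11.9% of the genes tested, and 6.38% lay lower in R6/1 without overlap. A single gene's difference was also examined with a two-sided exact permutation test over all 48620 ways to choose 9 of the 18 libraries, in which the smallest possible p is 4.11e-05. Since the tissue was whole hippocampus, fewer cells of a field and less RNA per cell cannot be told apart in any of the values below.

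Of the 8 genes that passed the expression filter, 6 were called lower in R6/1 and none higher; Map3k15 did not pass it. All 4 CA3 genes fell, and none of them overlapped between genotypes. Relative to the WT mean, Iyd fell by 74.85%, Prss35 fell by 57.8%, Bok fell by 55.3% and Cpne4 fell by 47.6%. Of the 4 tested CA2 genes, Pcp4 fell by 42.8% and Amigo2 fell by 41.1%, whereas Cacng5 and Necab2 did not pass the test. The median log2 fold change was -1.06 for the 4 CA3 genes, -0.42 for the 4 CA2 genes and 0.00 over all tested genes. The authors' deposited table gave the same 6 calls, where 40.4% of all its genes with an adjusted p were called.

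**Figure D1:**
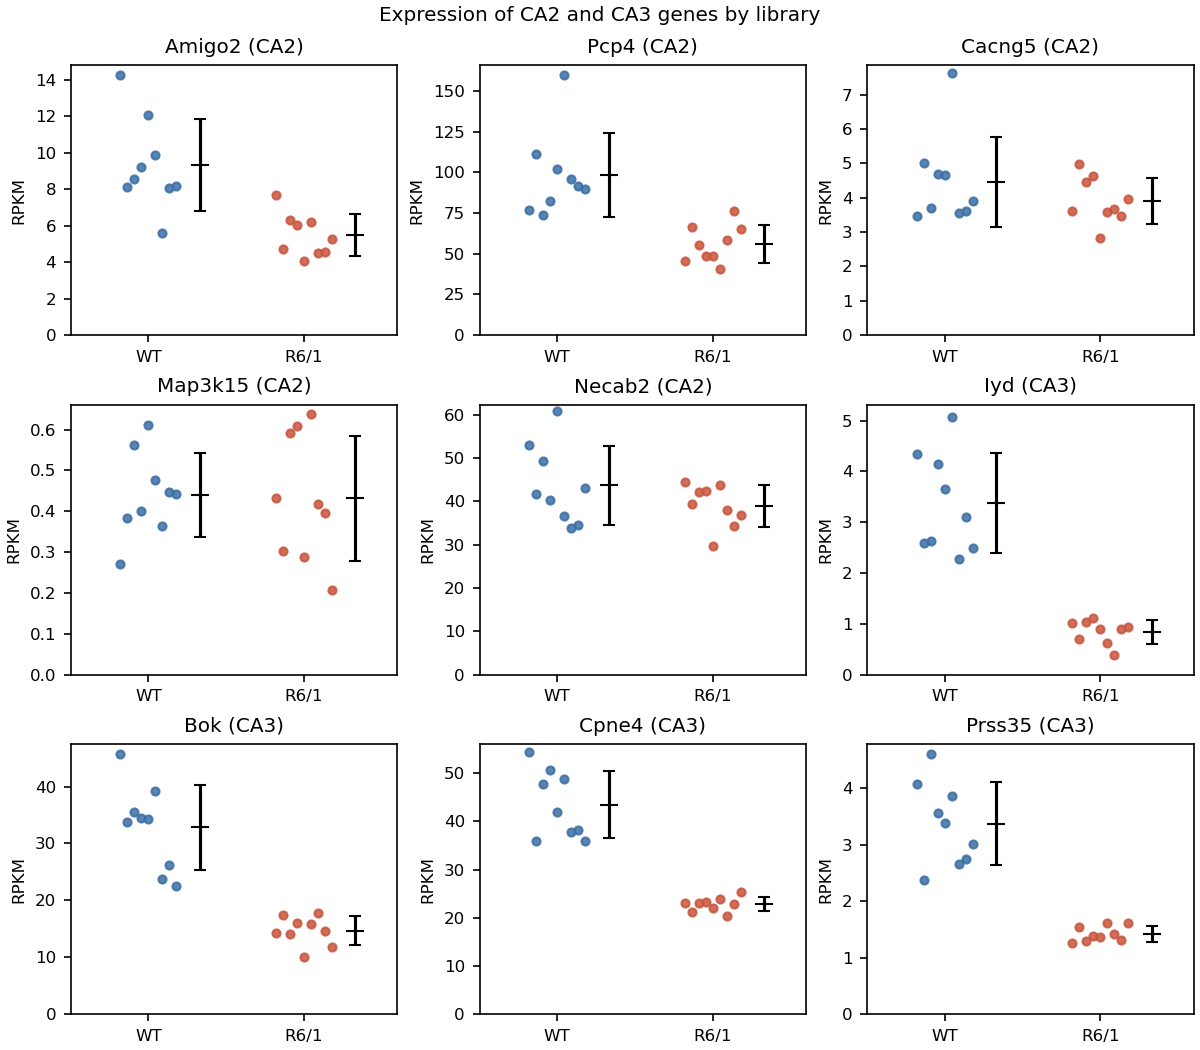
RPKM of each of the 9 genes (vertical axes, each starting at 0) in the 9 WT (blue) and 9 R6/1 (red) libraries; the bars show the mean and 1 SD. The R6/1 points lie wholly below the WT points for Iyd, Bok, Cpne4 and Prss35, and the groups overlap for the 5 CA2 genes.

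Iyd (chromosome 10, 6791664 to 6806301, minus strand; NCBIM37 here and below) showed the largest fold change of the 9 genes. Its WT libraries ranged from 2.27 to 5.08 RPKM with a median of 3.11, and the R6/1 libraries from 0.378 to 1.12 RPKM with a median of 0.901. The highest R6/1 library was thus far below the lowest WT library. The mean fell from 3.37 ± 0.984 to 0.848 ± 0.236 RPKM (SD, n = 9 each; log2 fold change -1.50, SE 0.141, limma adjusted p 4.44e-08; exact permutation p 4.11e-05, the smallest possible). Of the 14446 tested genes, 29 had a lower fold change. Iyd is a rare transcript here, read 48 to 113 times in a WT library and 8 to 28 times in an R6/1 library, so counting error adds to the spread in R6/1, and the added 0.5 RPKM shrinks its fold change: with 0.1 in its place the value was -1.87.

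Bok (chromosome 1, 95582271 to 95592339, plus strand) lay between 22.4 and 45.7 RPKM in WT, with a median of 34.2, and between 9.97 and 17.8 RPKM in R6/1, with a median of 14.7. Every R6/1 library was below every WT library. The mean fell from 32.8 ± 7.50 to 14.7 ± 2.52 RPKM (SD, n = 9 each; log2 fold change -1.12, SE 0.127, limma adjusted p 5.63e-07). Its relatives Bax and Bak1, the canonical effectors of mitochondrial apoptosis, were not called: the WT and R6/1 means were 24.9 ± 2.69 and 24.8 ± 2.19 RPKM for Bax and 4.93 ± 0.440 and 5.14 ± 0.434 RPKM for Bak1 (SD, n = 9 each; limma adjusted p 0.946 and 0.463).

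Cpne4 (chromosome 9, 104449616 to 104936874, plus strand) ranged from 35.9 to 54.3 RPKM in WT, median 42.0, and from 20.4 to 25.3 RPKM in R6/1, median 23.0. The groups did not meet, and Cpne4 had the narrowest R6/1 range of the 9 genes relative to its level. The mean fell from 43.5 ± 6.97 to 22.8 ± 1.44 RPKM (SD, n = 9 each; log2 fold change -0.90, SE 0.0752, limma adjusted p 8.25e-09), the smallest adjusted p of the 9 genes. Prss35 (chromosome 9, 86636434 to 86650680, plus strand) ranged from 2.38 to 4.61 RPKM in WT, median 3.39, and from 1.25 to 1.62 RPKM in R6/1, median 1.39. It too was lower in every R6/1 library than in any WT library. The mean fell from 3.37 ± 0.735 to 1.42 ± 0.138 RPKM (SD, n = 9 each; log2 fold change -0.99, SE 0.0951, limma adjusted p 6.10e-08). Both genes also had a narrower relative spread between R6/1 libraries: the coefficient of variation went from 16.0% to 6.33% for Cpne4 and from 21.8% to 9.71% for Prss35. Prss35 was read 90 to 145 times in a WT library and 49 to 68 times in an R6/1 library, so counting error is part of its spread. All 8 tested genes had a lower coefficient of variation in R6/1, as did 56.4% of all tested genes, and Iyd showed the smallest change (29.2% to 27.8%).

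Among the CA2 genes, Pcp4 (chromosome 16, 96689213 to 96747400, plus strand) was the most abundant transcript of the 9. It ranged from 74.0 to 159.9 RPKM in WT, median 91.8, and from 40.4 to 76.4 RPKM in R6/1, median 55.2. In 8 of the 9 R6/1 libraries it was below the lowest WT library, so the groups overlapped by a single library. The mean fell from 98.3 ± 26.0 to 56.2 ± 11.6 RPKM (SD, n = 9 each; log2 fold change -0.79, SE 0.133, limma adjusted p 6.15e-05; exact permutation p 8.23e-05). Amigo2 (chromosome 15, 97074505 to 97077718, minus strand) ranged from 5.61 to 14.3 RPKM in WT, median 8.56, and from 4.08 to 7.70 RPKM in R6/1, median 5.30. All 9 R6/1 libraries lay below the WT median and 5 of them below the lowest WT library. The mean fell from 9.33 ± 2.53 to 5.49 ± 1.16 RPKM (SD, n = 9 each; log2 fold change -0.69, SE 0.137, limma adjusted p 0.000314; exact permutation p 0.000617).

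The other 3 CA2 genes were not called. Necab2 (chromosome 8, 121970619 to 121996540, plus strand) ranged from 33.9 to 60.8 RPKM in WT, median 41.7, and from 29.7 to 44.5 RPKM in R6/1, median 39.5, with largely overlapping groups. Its means were 43.7 ± 9.07 and 39.0 ± 4.85 RPKM (SD, n = 9 each), and the log2 fold change of -0.15 had a 95% interval from -0.36 to 0.07 (limma adjusted p 0.254; exact permutation p 0.22). Cacng5 (chromosome 11, 107735919 to 107776369, minus strand) ranged from 3.47 to 7.62 RPKM in WT, median 3.92, and from 2.82 to 4.99 RPKM in R6/1, median 3.66. The groups overlapped over most of their range, with means of 4.47 ± 1.31 and 3.92 ± 0.673 RPKM (SD, n = 9 each; log2 fold change -0.15, 95% interval -0.40 to 0.11, limma adjusted p 0.33; exact permutation p 0.292). Both intervals exclude the fold changes estimated for Amigo2 and Pcp4 but leave room for smaller ones. Map3k15 (chromosome X, 156426365 to 156561283, plus strand), with 15 to 45 reads per library, was the least abundant of the 9 genes, and its mean of 0.436 RPKM over all libraries was below the filter. It ranged from 0.271 to 0.611 RPKM in WT, median 0.443, and from 0.208 to 0.639 RPKM in R6/1, median 0.418 (difference of mean log2 values -0.02, exact permutation p 0.811). The R6/1 range enclosed the WT range.

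The spans of some of these genes overlap those of neighbours. Whether their exons overlap is not given here, and whether reads were counted by strand is not given in the sources used here. Map3k15 is overlapped on the opposite strand by Pdha1, a subunit gene of pyruvate dehydrogenase, which was far more abundant, with WT and R6/1 means of 69.9 ± 4.15 and 78.5 ± 2.97 RPKM (SD, n = 9 each; log2 fold change 0.17, limma adjusted p 0.000584). Amigo2 is overlapped on the opposite strand by Pced1b, which stood at 2.52 ± 0.326 and 2.47 ± 0.319 RPKM (SD, n = 9 each; limma adjusted p 0.81). Igsf5, which shares its strand with Pcp4, had means of 0.176 and 0.241 RPKM, a small amount beside Pcp4. The part of these neighbours in the values of Map3k15 and Amigo2 was not tested.

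In order of level per length, WT hippocampus held Pcp4, then Necab2 and Cpne4 at nearly equal means, then Bok, Amigo2, Cacng5, Prss35, Iyd and Map3k15. Necab2 exceeded Cpne4 in 4 of the 9 WT libraries and Prss35 exceeded Iyd in 3 of 9, so neither pair had an order beyond its spread. In R6/1 both pairs were separated: Necab2 was above Cpne4 in 9 of 9 libraries, with no overlap of the ranges, and Prss35 was above Iyd in 9 of 9. Pcp4, above Necab2 without overlap in WT, overlapped it in R6/1, where it was higher in 8 of 9 libraries.

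Ratios of RPKM + 0.5 between genes of the same library were compared to see which genes moved apart. They were chosen as a measure after the values were seen, and for the low genes, Iyd and Prss35 above all, they depend on the added constant. Of the 28 pairs among the 8 tested genes, 17 had a ratio that differed between genotypes by the exact permutation test after Benjamini-Hochberg adjustment over the pairs. Within CA2, the log2 ratio of Amigo2 to Necab2 differed by -0.55 (R6/1 minus WT, adjusted exact permutation p 0.000384) and that of Amigo2 to Cacng5 by -0.55 (adjusted p 0.011). Pcp4 likewise fell relative to Cacng5 (-0.64, adjusted exact permutation p 0.00048) and to Necab2 (-0.64, adjusted p 0.0138). The ratio of Amigo2 to Pcp4 differed by 0.10 (exact permutation p 0.689) and that of Cacng5 to Necab2 by -0.0037 (0.984), so that the CA2 genes formed a falling pair and a pair with no detected change. Within CA3, Iyd fell relative to Cpne4 (-0.60, adjusted exact permutation p 0.000384) and to Prss35 (-0.51, adjusted p 0.00913), and its ratio to Bok passed with a pseudocount of 0.1 (-0.73, adjusted p 0.00354) but not of 0.5 (-0.38, adjusted p 0.0666). The same held for Cpne4 to Prss35 (0.25, adjusted exact permutation p 0.00475, with 0.1; 0.09, adjusted p 0.224, with 0.5) and for Amigo2 to Prss35 (0.43, adjusted p 0.0181, with 0.1; 0.29, adjusted p 0.0863, with 0.5). Bok did not move apart from Cpne4 (difference of the log2 ratio -0.22, exact permutation p 0.094) or from Prss35 (-0.13, exact permutation p 0.312) beyond the spread. Across the fields, Necab2 rose relative to Cpne4 by 0.76, from a log2 ratio of 0.00 in WT to 0.76 in R6/1 (adjusted exact permutation p 0.000329). The genes were chosen with earlier results known, so these p-values rank the pairs of this set and no more.

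Other genes with known enrichment in the same fields were described by count and median, without a test of the list. Of 8 other CA2 genes, 7 were tested; 5 were called lower, 2 (Fgf2 and Acan) were not called, and the median log2 fold change was -0.49. Rgs14, a regulator of G-protein signalling that restrains plasticity in CA2, fell from 42.4 ± 4.53 to 14.2 ± 1.43 RPKM without overlap (SD, n = 9 each; log2 fold change -1.54, limma adjusted p 4.17e-13). Nr3c2, the mineralocorticoid receptor, fell from 39.3 ± 6.05 to 24.1 ± 2.56 RPKM, and Adora1, the adenosine A1 receptor, from 51.1 ± 5.20 to 36.3 ± 1.89 RPKM, both without overlap (SD, n = 9 each). Ntf3, a neurotrophin, and Ptpn5, a tyrosine phosphatase, were called with overlapping groups. Avpr1b, the vasopressin receptor typical of CA2, was under the filter, with WT and R6/1 means of 0.229 and 0.0422 RPKM and no overlap.

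Of 11 other CA3 genes, 9 were called lower, 1 higher and 1, Coch, not called, with a median log2 fold change of -0.66. The decreases without overlap were those of Npy2r, a neuropeptide Y receptor (21.5 ± 6.73 to 7.66 ± 1.71 RPKM), Nectin3, an adhesion protein (10.9 ± 3.10 to 4.82 ± 0.673 RPKM), Homer3, a postsynaptic scaffold protein (12.3 ± 2.81 to 5.92 ± 0.960 RPKM), Chgb, a protein of dense-core vesicles (249.9 ± 30.4 to 114.0 ± 5.40 RPKM), Cdh24, a cadherin (4.57 ± 0.528 to 2.17 ± 0.353 RPKM), and St18, a zinc finger factor (6.26 ± 1.11 to 3.74 ± 0.296 RPKM; SD, n = 9 each). Grik4, Csf2rb2 and Dkk3 fell by less, with overlap. Plagl1, a zinc finger factor, was the exception, rising from 5.17 ± 2.70 to 8.81 ± 1.87 RPKM with overlapping groups (SD, n = 9 each; log2 fold change 0.81, limma adjusted p 0.00285). The 4 CA3 genes described here, with a median of -1.06, thus lay among the larger decreases of their field, between St18 and Npy2r except for Iyd.

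**Figure D2:**
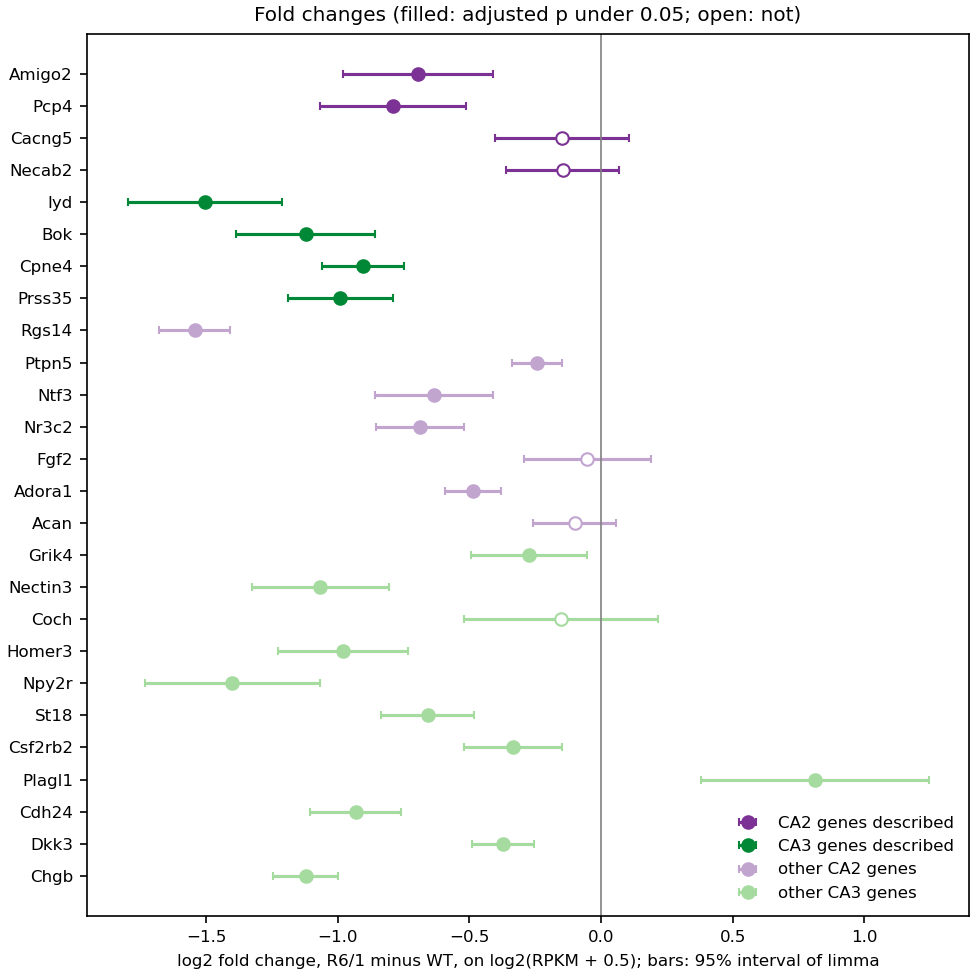
Log2 fold change (horizontal axis, R6/1 minus WT, on log2(RPKM + 0.5)) of the 8 tested genes and of the other CA2 and CA3 genes, with the 95% interval of limma; filled points have an adjusted p under 0.05. Points left of the line at 0 were lower in R6/1: all 4 CA3 genes described and Amigo2 and Pcp4 lie there with filled points, Cacng5 and Necab2 are open at -0.15, and Plagl1 is alone on the right at 0.81.

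Decreases were not limited to CA2 and CA3. All 8 dentate granule genes were called lower, with a median log2 fold change of -0.99 and the largest decrease in Dsp (7.63 ± 2.54 to 1.06 ± 0.346 RPKM), and all 6 general excitatory neuron genes, with a median of -0.71 and the largest decrease in Neurod6 (88.7 ± 9.13 to 29.1 ± 2.85 RPKM; SD, n = 9 each). Of the 8 CA1 genes, 5 were called lower and 1 higher (median -0.30), with the largest decrease in Wfs1, which fell from 47.8 ± 9.90 to 13.6 ± 0.736 RPKM without overlap (SD, n = 9 each; log2 fold change -1.75, limma adjusted p 1.81e-11). Pan-neuronal genes had 5 of 6 lower and 1 higher (median -0.27), and inhibitory neuron genes 5 of 6 lower (median -0.33). The summed level of the 6 excitatory neuron genes was 1875 to 2323 RPKM per library in WT and 1061 to 1307 RPKM in R6/1.

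The 8 tested genes were therefore set against the mean log2 level of these lists in the same library, again a comparison chosen after the values were seen, with 32 comparisons in all and Benjamini-Hochberg adjustment over them. All used log2(RPKM + 0.5), which understates changes of low genes such as Iyd and Prss35. No other added constant was tried for these comparisons. The mean of the excitatory neuron list moved by -0.83, with single genes of the list from -1.59 to -0.37, so the outcome depends on its make-up. Relative to this mean, only Iyd was lower (-0.67, adjusted exact permutation p 0.000165). Necab2 (0.69) and Cacng5 (0.68), whose own log2 fold changes were -0.15 each, were higher. Cpne4 (-0.07), Prss35 (-0.16), Bok (-0.29), Pcp4 (0.04) and Amigo2 (0.14) did not pass the threshold, with unadjusted exact permutation p-values from 0.033 for Bok to 0.806 for Pcp4. Relative to the pan-neuronal list, which moved by -0.24, all 4 CA3 genes and Amigo2 and Pcp4 were lower, with differences from -1.26 (Iyd) to -0.45 (Amigo2), and none was higher. Relative to the CA1 list (-0.39), Pcp4 and the 4 CA3 genes were lower, and relative to the dentate list (-1.26), none was lower and Amigo2, Pcp4, Cacng5, Necab2 and Cpne4 were higher. Whether a gene of these fields appeared to fall thus depended on the reference: Iyd was lower against 3 of the 4 lists, and Cacng5 and Necab2 were lower against none.

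**Figure D3:**
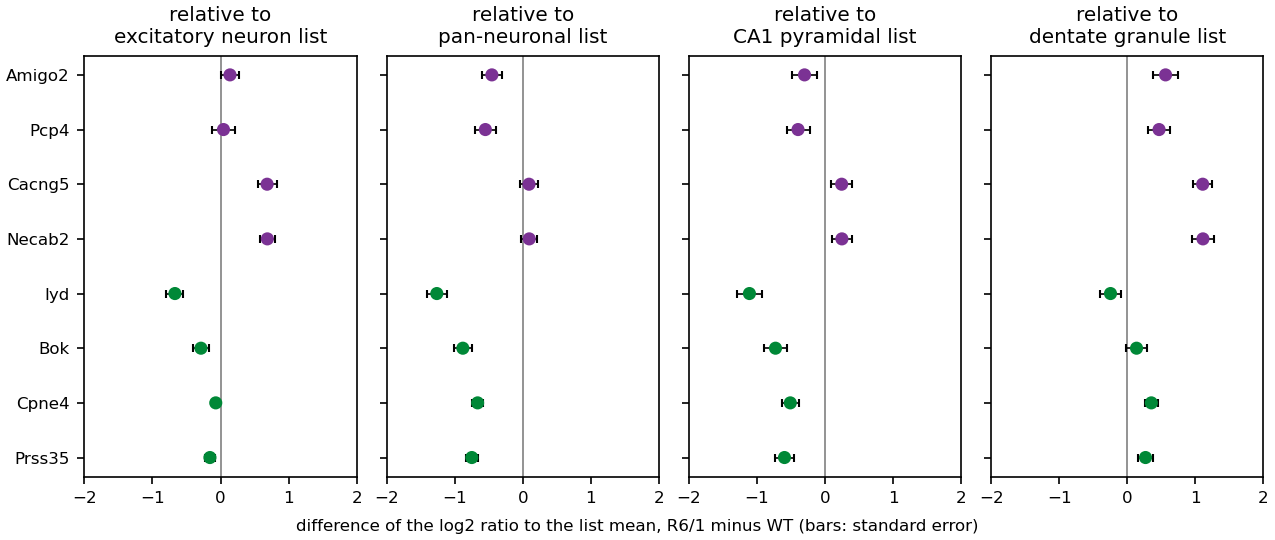
Difference between genotypes (horizontal axis, R6/1 minus WT) in the log2 ratio of each tested gene to the mean log2 level of the excitatory neuron, pan-neuronal, CA1 pyramidal and dentate granule lists of the same library; bars show the standard error. Against the excitatory list most genes lie near 0, with Iyd to the left at -0.67 and Cacng5 and Necab2 to the right at 0.68 and 0.69.

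Glial and other markers were also examined. In R6/1, 5 of 6 astrocyte genes, 4 of 6 oligodendrocyte genes, 3 of 6 microglial genes and 1 of 6 endothelial genes were called lower and none higher. The proportions of cell types in the tissue were not tested. Choroid plexus genes, with a summed level from 25.6 to 1071 RPKM in WT and from 38.3 to 1738 RPKM in R6/1, differed widely between libraries of both genotypes, and none of the 6 was called. No gene of these lists was at 0 in all libraries. Of 7 tested genes of striatal projection neurons, 3 were called lower (summed level 32.4 to 42.4 RPKM in WT and 25.1 to 29.2 RPKM in R6/1).

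Thalamus genes were examined because the thalamus lies beneath the hippocampus and Pcp4 is expressed there. Of the 6 thalamus genes, 3 were called lower in R6/1 and none higher. The largest decrease was that of Prkcd, a protein kinase C of thalamic relay neurons, from 15.1 ± 9.46 to 4.11 ± 1.25 RPKM without overlap (SD, n = 9 each; log2 fold change -1.64, limma adjusted p 6e-06). The list summed to 25.1 to 97.1 RPKM per WT library and to 24.5 to 37.2 RPKM per R6/1 library. WT replicate 6 stood apart with the highest WT value for all 6 thalamus genes and a sum of 97.1 RPKM, where the next WT library had 49.7. Among the R6/1 libraries, replicate 9 had the highest sum (37.2 RPKM) and the highest R6/1 value for 5 of the 6 genes. WT replicate 6 also held the highest WT values of Pcp4 (159.9 RPKM), of Cacng5 (7.62 RPKM) and of the CA3 gene Iyd (5.08 RPKM). Without this library, Pcp4 remained lower in R6/1 (log2 fold change -0.70, limma adjusted p 4.22e-05), as did Iyd (-1.43, limma adjusted p 7.57e-08). The log2 fold change of Cacng5 went from -0.15 to -0.06 (limma adjusted p 0.657). The part of thalamic RNA in the difference of Pcp4 was not tested beyond this.

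**Figure D4:**
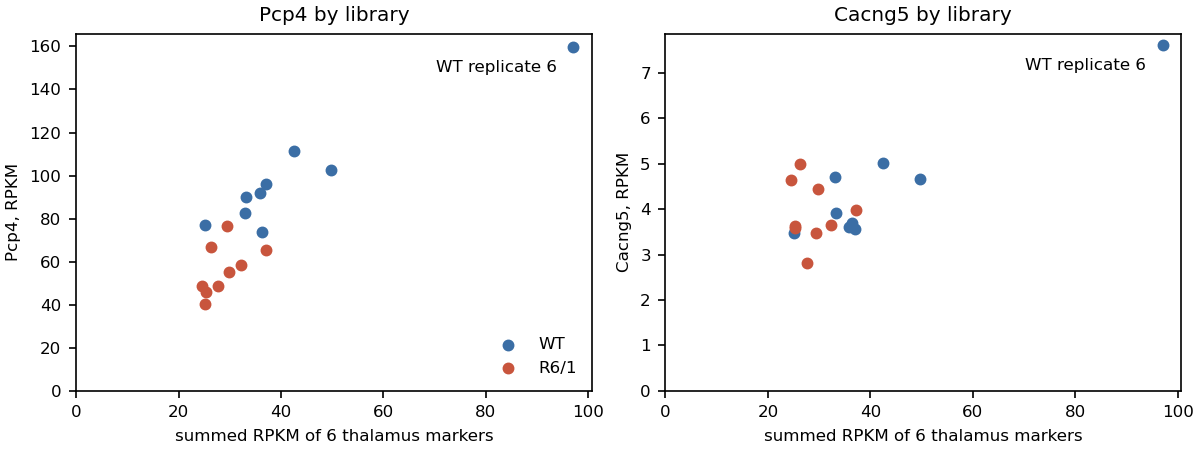
RPKM of Pcp4 (left) and Cacng5 (right) on the vertical axes against the summed RPKM of 6 thalamus genes on the horizontal axis, 1 point per library, WT in blue and R6/1 in red. WT replicate 6 lies alone at the upper right of both panels, at 97.1 RPKM of thalamus genes.

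Co-variation across libraries of a genotype gave a further description, free of the difference between genotypes. In WT, all 6 pairs of CA3 genes correlated positively, with a median Pearson r of 0.75 and a range from 0.53 to 0.86. In R6/1, 3 of these 6 pairs were positive and the median was -0.15. Positive values in WT were not limited to CA3 pairs. Of the 20 WT pairs of a CA2 gene with a CA3 gene, 15 were positive, with a median r of 0.28. The CA2 gene Amigo2 had an r of 0.78 with Bok, 0.73 with Iyd, 0.65 with Cpne4 and 0.57 with Prss35 in WT. The closest CA3 pair in WT was Cpne4 with Prss35 (r = 0.86, exact permutation p 0.0055; Spearman rho 0.78, exact permutation p 0.0172; n = 9), and r was 0.90 without the 2 libraries farthest from the Cpne4 median. In R6/1 the same pair had an r of 0.24. Iyd (8 to 28 reads per library) and Prss35 (49 to 68) were read few times in R6/1. The part of counting error in the R6/1 correlations was not tested. Amigo2 and Necab2, the pair that moved apart between genotypes, correlated within each of them: r was 0.74 in WT (exact permutation p 0.0218; rho 0.72) and 0.86 in R6/1 (exact permutation p 0.00285; rho 0.87), and 0.62 and 0.82 without the 2 libraries farthest from the Amigo2 median. Without the 2 farthest from the Necab2 median r was 0.39 in WT and 0.84 in R6/1, so the WT relation rests on those libraries. Pcp4 and Cacng5 had an r of 0.87 in WT (exact permutation p 0.00816; rho 0.60) but 0.57 without WT replicate 6, and so rests on that library. Of the 72 correlations, 36 per genotype, none passed Benjamini-Hochberg adjustment (8 in WT and 1 in R6/1 had an unadjusted exact permutation p under 0.05), and the difference in correlation between genotypes was not tested. All pairs share their libraries and depth.

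**Figure D5:**
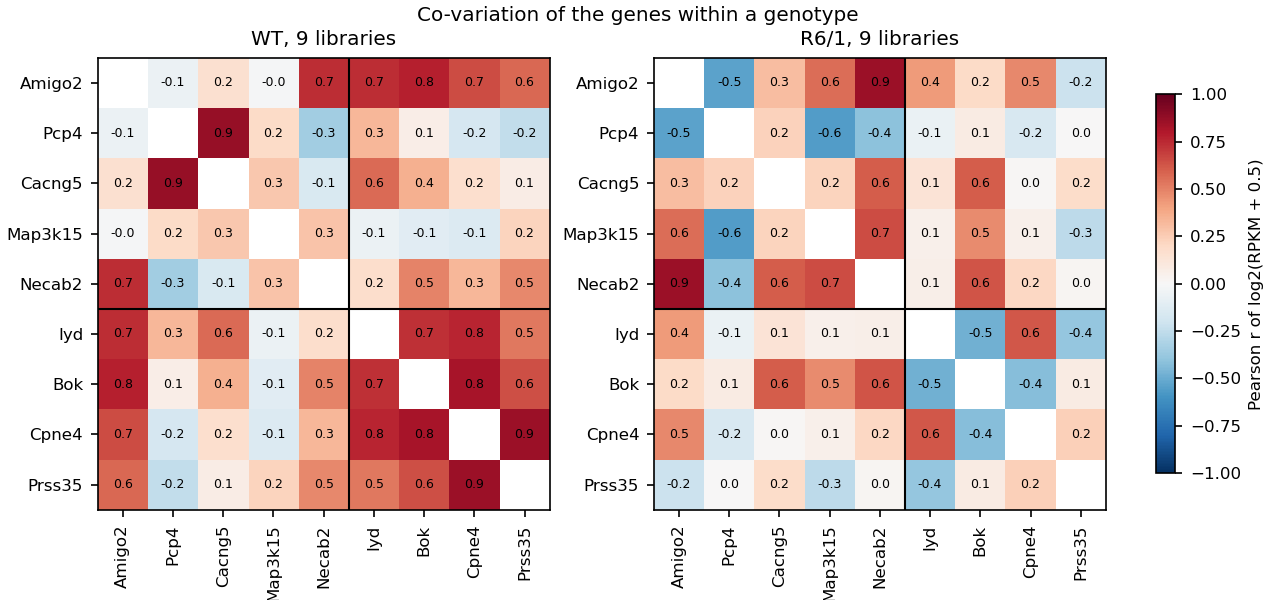
Pearson r of log2(RPKM + 0.5) between each pair of the 9 genes (colour and printed value) over 9 WT libraries (left) and 9 R6/1 libraries (right); black lines divide CA2 from CA3 genes. The lower right block of CA3 pairs is positive throughout in WT, from 0.53 to 0.86, and of mixed sign in R6/1. Amigo2, a CA2 gene, is also positive with each CA3 gene in WT.

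The genes whose levels tracked each of the 9 most closely were sought among the other 14438 tested genes, over 18 libraries after the mean of each genotype was subtracted, as a description with no test. The top values of so wide a search are high in part because they were picked as the highest. The closest other gene of the set would have ranked from 4 (Cpne4, for Prss35) to 823 (Necab2, for Map3k15). The closest to Cpne4 were Camta1 (r = 0.90) and Ogfrl1 (0.88), to Iyd Olfml2b (0.90) and Lig4 (0.86), to Bok Ddit4 (0.84) and Oxa1l (0.84), and to Prss35 St18 (0.83) and Galk2 (0.80). St18 belongs to the CA3 list above and had a log2 fold change of -0.66; it and Prss35 therefore also moved the same way between genotypes. Among the CA2 genes, the closest to Amigo2 were Cnnm4 (0.89) and Elovl4 (0.84), to Pcp4 Kitl (0.88) and Ubap1l (0.81), to Cacng5 Topors (0.83) and Npm1 (0.81), and to Map3k15 Heph (0.81) and Rad51ap1 (0.79). Necab2 tracked Plagl1 (0.90) and Igfbp3 (0.88). Plagl1 is the CA3-list gene that rose, so the gene most like Necab2 within genotypes went the other way from the other called genes of its list between them.

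The relatives of the 9 genes in their gene families moved in both directions. Of 24 tested paralogs, 14 were called lower, 3 higher and 7 not called, with a median log2 fold change of -0.25. The Necab family split. Necab1 rose from 19.2 ± 5.72 to 27.2 ± 2.39 RPKM (SD, n = 9 each, limma adjusted p 0.000981), with every R6/1 library inside the WT range. Necab3 fell from 14.3 ± 2.78 to 7.10 ± 1.07 RPKM without overlap (SD, n = 9 each, limma adjusted p 2.5e-07), and Necab2 itself was not called. Among the copines, Cpne6 (178.8 ± 23.9 to 120.5 ± 11.8 RPKM) and Cpne9 (8.10 ± 2.08 to 4.70 ± 0.747 RPKM) fell without overlap (SD, n = 9 each), Cpne5, Cpne7 and Cpne8 fell with overlap, and the more widely expressed Cpne1, Cpne2 and Cpne3 were not called. Of the genes related to Cacng5 in sequence, Cacng8, an AMPA receptor auxiliary subunit, fell from 97.9 ± 11.7 to 67.4 ± 4.86 RPKM without overlap (SD, n = 9 each), Cacng2, Cacng3, Cacng4 and Cacng6 fell with overlap, Cacng7 was not called and Cacng1 was under the filter. Prss23 fell from 5.52 ± 1.14 to 3.04 ± 0.419 RPKM without overlap (SD, n = 9 each). Amigo1 and Pcp4l1 fell with overlap, Amigo3 was not called, and Map3k5 and Map3k6 rose.

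Finally, the 9 genes were placed relative to lamin B1 domains, large chromatin stretches at the nuclear periphery that are mostly poor in active genes. The authors' lists hold 145 domains in WT and 166 in R6/1, 1 list per genotype, so differences between them carry no replicate error. Prss35 was the sole gene of the 9 with its start in a domain, and in WT alone: the domain spanned 80364001 to 94313000 on chromosome 9, a length of 13.9 Mb. In R6/1 the nearest domain spanned 90169001 to 94498000, leaving the Prss35 start 3.53 Mb outside. Prss35 thus left a listed domain while its transcript fell by 57.8%; a link between these was not tested. Of 12827 tested genes placed on the genome, 13.0% had their start in a WT domain and 7.99% in an R6/1 domain, against 1 and 0 of the 9 genes here. Bok started 0.396 Mb from a domain of 24.2 Mb in WT and 0.433 Mb from the corresponding one in R6/1, Map3k15 0.619 Mb from a domain in WT and 2.62 Mb in R6/1, and Iyd 2.07 and 2.11 Mb. The other 5 genes lay between 6.93 and 24.8 Mb from the nearest domain in both genotypes.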

How the data were processed

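RNA-seq of 9 WT and 9 R6/1 hippocampi was analysed, grouped by the genotype in the labels. The authors deposited RPKM values, made with TopHat and DESeq2 on build mm9 per the submitters' processing notes; versions, the counter, the annotation and strand handling are not given in the sources used here. All columns of per-sample values were mapped (0 unused). Per gene, the authors' deposited table lists a mean normalized signal, the log2 fold change and its standard error (at most 0.233), a test score and p-values; 6113 genes have no adjusted p there. RPKM were first rescaled per gene by the deposited mean normalized signal, which gives normalized counts. Among counts above 0 and under a fixed upper limit, 99.86% to 99.9% per library were whole multiples of 1 step, within 0.05 of a read. These multiples gave back the reads. The deposited domain lists, with the authors' score per domain, came from Bowtie alignments per the submitters' processing notes and the EDD caller per the file names; how replicates were combined is not given.

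From these values, limma 3.58.1 in R 4.3.3 (linear model and moderated test, trend on the mean, two-sided) was run on log2(RPKM + 0.5) for genes averaging 0.5 RPKM or more, and fold changes of low genes are understated on this scale. Exact permutation tests and correlations used Python 3.11.15 with scipy 1.17.1. The fit was tested on simulated data. The 9 genes, the 15 gene lists and the rule for named genes were chosen with earlier results of these data known. The rule names all 9 genes, the other CA2 and CA3 genes and paralogs, the largest changes in each other list and the 2 genes most like each of the 9. Xist was at most 0.0365 RPKM (9 reads) in every library, so low that the Xist covariate named below could adjust for little. Gene positions are from the NCBIM37 annotation. Alternatives were pseudocounts of 0.1 and 1, no filter or one at 2 RPKM, quantile normalization, median centring, scaling to each library's reads, a replicate block, library weights, limma without trend, an Xist covariate, each library left out, and the authors' table. ATAC-seq was not analysed here. The limma intervals rest on the spread between libraries.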

Additional observations from a re-analysis of the deposited data

Results flagged for a closer look

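Dixon's criterion was applied to RPKM, not to the log scale of the limma tests, and its outcome can depend on that scale. Of 18 groups of 9 libraries, 1 per gene and genotype, 2 held a library set apart from the others by it. For normally distributed values, chance gives about 1 in 20, or 0.9 of 18. Pcp4 in WT replicate 6 was at 159.9 RPKM (1483 reads), the next WT library being at 111.4 RPKM. Cacng5 in the same library was at 7.62 RPKM (422 reads), with the next at 5.02 RPKM. Both come from the library with the highest summed level of thalamus genes (97.1 RPKM, with Prkcd at 38.9 and Tcf7l2 at 9.35 RPKM). The part of thalamic RNA in the 2 values was not tested.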

How the results depend on the processing

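Each of the 8 tested genes kept its direction and its side of the threshold in all 30 alternatives, and 6 of them were called in every one. The log2 fold change ranged from -1.87 to -1.22 for Iyd, -1.19 to -1.04 for Bok, -0.94 to -0.83 for Cpne4, -1.17 to -0.84 for Prss35, -0.85 to -0.70 for Pcp4, -0.78 to -0.61 for Amigo2, -0.19 to -0.06 for Cacng5 and -0.19 to -0.07 for Necab2. Map3k15 could be tested in 2 alternatives, without a filter (log2 fold change -0.02, limma adjusted p 0.877) and in the authors' deposited table (-0.02, adjusted p 0.935). All genes called numbered 6156 to 7636, and 6661 to 7176 with 1 library left out. With each library scaled to its own reads, 5110 genes were higher and 2526 lower, against 3586 and 3394, and the median log2 fold change of all genes was 0.07. The labels give both genotypes the same replicate numbers without saying that they pair the libraries. Same-numbered libraries had correlated deviations from -0.05 to 0.24, and 2 of 9 correlated best with their own number. With the replicate block, 7133 genes were called and 6 of the 8 tested genes, the same count. The filter has no bearing on the co-variation, so that alternative was not run; with other pseudocounts or without the 2 farthest libraries, 0 pairs passed in either genotype. With a pseudocount of 0.1, 20 of 28 ratios between genes passed in place of 17. The start and the body of a gene gave the same counts in domains. The fewest reads lay behind Map3k15 (15 to 45 per library) and, in R6/1, Iyd (8 to 28).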
